A study of Mus musculus with 9 samples.

Results

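The 6 Iroquois homeobox genes of the mouse, Irx1 to Irx6, were examined across 3 groups of sorted retinal cells. All probe sets annotated to one of these symbols alone were taken, which gave 6 probe sets, 1 for each gene, among 18193 genes measured on 9 Affymetrix arrays. The probe sets were 1451983_at for Irx1, 1426298_at for Irx2, 1418517_at for Irx3, 1419539_at for Irx4, 1421072_at for Irx5 and 1427383_at for Irx6. RNA came from cells separated by GFP fluorescence with a cell sorter. The rhoGFP-positive and rhoGFP-negative groups came from retinae of rhoEGFP mice, a rod photoreceptor reporter line, at postnatal day 4 (P4). The nestinGFP-positive group came from pNestin-GFP mice, a line named for the progenitor filament nestin, at postnatal day 0 (P0). All 3 groups had a C57BL/6J-129/Ola background. There were 3 biological replicates in a group, and retinae of 6 to 8 mice were combined for every replicate. The rhoGFP-negative group is the remainder of the P4 retina and holds several cell types, and the nestinGFP-positive group differs from both others in line and age together.

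Iroquois proteins are transcription factors of the TALE class, whose homeodomain carries an extra loop of amino acids, and they share a short conserved stretch named the Iro box. The genes lie in a pair of clusters, with Irx1, Irx2 and Irx4 on mouse chromosome 13 and Irx3, Irx5 and Irx6 on chromosome 8. In the retina the family is best known in the inner layers: Irx5 and Irx6 take part in the maturation of cone bipolar cells, the interneurons between cones and ganglion cells, and several members are made in ganglion cells. Rods and cones arise from the same progenitors as these neurons, and the last divisions of those progenitors in the mouse fall in the days around birth that these samples cover.

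The groups were checked against marker genes. Of 9 measured rod genes, 9 were called higher in the rhoGFP-positive than in the rhoGFP-negative cells, where 3.61% of all genes were called higher. The smallest of these differences was that of Nrl, a rod transcription factor gene (1.06, limma adjusted p = 0.0185). Nrl stood at 13.58, 13.67 and 13.68 on the rhoGFP-positive arrays and at 12.72, 12.82 and 12.21 on the rhoGFP-negative arrays. It did not pass the test without rhoGFP-positive replicate 2 or 3 or rhoGFP-negative replicate 3 (limma adjusted p = 0.0603, 0.0549 and 0.0723). The rod phosphodiesterase subunit Pde6b stood at 12.51, 12.46 and 12.42 (log2) on the rhoGFP-positive arrays, at 9.81, 9.19 and 8.34 on the rhoGFP-negative arrays and at 8.18, 7.70 and 6.72 on the nestinGFP-positive arrays. Of 12 progenitor genes 11 were called lower in the rhoGFP-positive cells in both comparisons, where 7.32% and 10.5% of all genes were called lower. Nes, the nestin gene itself, did not pass the test between the rhoGFP fractions (log2 difference -0.56, limma adjusted p = 0.0547), and at -0.55 it was not called against the nestinGFP-positive cells either (limma adjusted p = 0.0406). Its mean was 8.60 in both the nestinGFP-positive and the rhoGFP-negative cells (limma adjusted p = 0.998), so its transcript did not mark the group of the nestin reporter. The mean of 3 probe sets for 18S ribosomal RNA was between 12.1 and 13.6 on the replicate 1 array of each group, and elsewhere it ran from 9.65 to 10.4.

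The chromosome 8 genes were lower in the rod-reporter cells, and the chromosome 13 genes gave low signals in every group, with no call. Against the rhoGFP-negative cells of the same age, Irx5 was 5.12-fold lower, Irx3 3.09-fold lower and Irx6 2.13-fold lower in the rhoGFP-positive cells. Beside the nestinGFP-positive cells of P0, Irx5 was 6.22-fold and Irx3 3.16-fold lower, while Irx6 was 1.86-fold lower, short of the 2-fold minimum set for a call. Between the rhoGFP-negative and nestinGFP-positive cells no member was called. A call needed at least a 2-fold difference, 1 log2 unit, together with an adjusted p under 0.05 from limma, fitted on all 9 arrays and adjusted by Benjamini-Hochberg over all 18193 genes. The 3' minus 5' log2 difference of the actin controls, a sign of RNA integrity, was 0.85, 0.97 and 0.90 on the rhoGFP-positive arrays and 0.64, 0.68 and 0.64 on the rhoGFP-negative arrays. It thus separated the rhoGFP fractions without overlap, as Irx3, Irx5 and Irx6 did, and its part in these differences was not tested. In bulk samples such as these, fewer cells that make a transcript and less of it per cell cannot be told apart.

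Irx5 gave the clearest separation. Its log2 signal was 7.43, 7.33 and 7.94 on the rhoGFP-positive arrays, 9.89, 9.50 and 10.39 on the rhoGFP-negative arrays and 10.63, 10.29 and 9.69 on the nestinGFP-positive arrays. Every rhoGFP-positive array lay below every array of the other groups, and those groups overlapped each other. The difference was -2.36 ± 0.28 (log2, SE) against the rhoGFP-negative cells (limma adjusted p = 0.000239) and -2.64 ± 0.28 against the nestinGFP-positive cells (limma adjusted p = 7.18e-05). The rhoGFP-positive signal itself, 7.57 ± 0.322 (SD, n = 3), was not among the low values of the arrays, on which 40% of the genes had a mean below 6.26.

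Irx3, the neighbour of Irx5 in its cluster, followed the same order at a smaller difference. It stood at 5.63, 5.74 and 5.99 on the rhoGFP-positive arrays, at 7.24, 7.19 and 7.81 on the rhoGFP-negative arrays and at 7.94, 7.39 and 7.00 on the nestinGFP-positive arrays. The rhoGFP-positive arrays were again the lowest without overlap, and the other groups had means of 7.41 and 7.44. The differences were -1.63 ± 0.24 (limma adjusted p = 0.000873) and -1.66 ± 0.24 (limma adjusted p = 0.00049). The rhoGFP-positive values of Irx3 lay in the low range of the arrays, where RMA, the method that made these values, compresses differences, and the table has no detection calls.

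Of the Irx genes that were called, the start region of Irx3 was in the RefSeq promoter table, and it is shown because Irx3 differed between the groups. The 250 bases before the start of Irx3, at chr8:91801655-91801904 on the minus strand of GRCm38.p6, are printed 5′ to 3′ with each CG dinucleotide in capitals.
Irx3: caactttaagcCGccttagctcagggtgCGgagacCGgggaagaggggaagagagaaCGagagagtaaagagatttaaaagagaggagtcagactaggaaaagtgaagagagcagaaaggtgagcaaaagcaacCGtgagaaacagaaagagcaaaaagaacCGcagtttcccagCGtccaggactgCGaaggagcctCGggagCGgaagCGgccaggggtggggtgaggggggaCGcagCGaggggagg
The stretch holds 13 CG dinucleotides and has 56.0% G and C, and 68.5% of the 32851 RefSeq windows of this length hold fewer. On either strand it has no match to the E-box CANNTG, found in 66.2% of windows, or to the homeodomain core TAATTA, found in 4.84%. It also has none to the GC box GGGCGG (32.7% of windows) or the TATA sequence TATAAA (12.4%). A lack of these letters in this window says nothing of which factors act on the gene.

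Irx6, the third gene of the chromosome 8 cluster, had the smallest differences of the 3. Rod-reporter arrays gave 6.07, 5.53 and 5.53, rhoGFP-negative arrays 6.65, 6.62 and 7.15, and nestinGFP-positive arrays 6.49, 6.73 and 6.60. The rhoGFP-positive arrays did not overlap with either other group, although replicate 1 lay close to both. The difference from the rhoGFP-negative cells, -1.09 ± 0.19 (limma adjusted p = 0.00202), became -0.92 without replicate 3 of the rhoGFP-negative group, which ended the call by its size and not by its adjusted p (0.00677). The difference from the nestinGFP-positive cells, -0.90 ± 0.19 (limma adjusted p = 0.00409), became -1.08 and was called without replicate 1 of the rhoGFP-positive group (limma adjusted p = 0.00143).

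**Figure D1:**
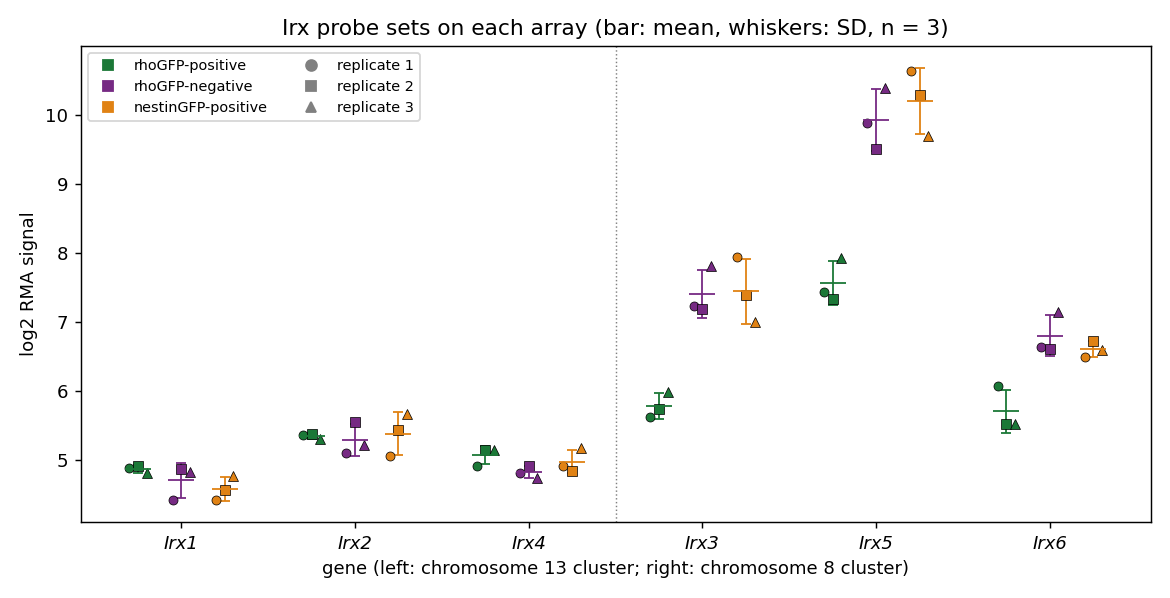
Log2 RMA signal (vertical axis) of the probe set of each Irx gene (horizontal axis) on each of the 9 arrays; colours give the sorted group, symbols the replicate number, and bars with whiskers the mean and SD of 3 replicates. The rhoGFP-positive points lie below both other groups for Irx3, Irx5 and Irx6, and the groups lie close together for Irx1, Irx2 and Irx4; heights of different genes come from different probes and are not comparable.

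None of the chromosome 13 genes was called in any comparison. Irx1 gave 4.89, 4.92 and 4.81 on the rhoGFP-positive arrays, 4.42, 4.87 and 4.83 on the rhoGFP-negative arrays and 4.43, 4.57 and 4.78 on the nestinGFP-positive arrays. Irx2 gave 5.36, 5.39 and 5.31, then 5.11, 5.56 and 5.22, then 5.06, 5.44 and 5.67 in the same order of groups. Irx4, known in chick ganglion cells as a regulator of the guidance gene Slit1, gave 4.93, 5.15 and 5.15, then 4.82, 4.93 and 4.74, then 4.93, 4.85 and 5.18. The groups overlapped in all 3 genes, except that the rhoGFP-positive arrays of Irx1 lay just above the nestinGFP-positive ones (4.81 against 4.78 at the nearest). In Irx4 the rhoGFP fractions only met, at 4.93 on rhoGFP-positive replicate 1 and rhoGFP-negative replicate 2, which is counted as overlap. Replicate 1 of the nestinGFP-positive group had the same Irx4 value.

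For these genes the 95% intervals of the differences bound what the arrays could have missed. Between the rhoGFP fractions the interval ran from -0.15 to 0.48 for Irx1, from -0.32 to 0.43 for Irx2 and from -0.03 to 0.51 for Irx4. In the comparison with nestinGFP-positive cells it ran from -0.04 to 0.60, from -0.41 to 0.34 and from -0.18 to 0.36 in the same order. Between the rhoGFP-negative and nestinGFP-positive cells it ran from -0.20 to 0.44, from -0.47 to 0.28 and from -0.42 to 0.12. No interval reached a 2-fold difference, and of the 3 genes 0 had an unadjusted p below 0.05 in any of the 3 comparisons. Their mean signals over all arrays, 4.73 for Irx1, 5.35 for Irx2 and 4.96 for Irx4, were below the 40% mark of 6.26. Signals this low can hide a change, so the intervals hold for the measured signal and not for the transcript.

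Slit1 itself was not called. Its difference was -0.32 between the rhoGFP fractions (limma adjusted p = 0.272) and -0.46 against the nestinGFP-positive cells (limma adjusted p = 0.0799).

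Counted as a family, 3 of 6 Irx genes were called lower in the rhoGFP-positive than in the rhoGFP-negative cells and 0 higher, where 7.32% of all genes were called lower and 3.61% higher. Against the nestinGFP-positive cells 2 of 6 were called lower and 0 higher, with 10.5% of all genes called lower and 5.06% higher. The medians of the 6 log2 differences were -0.52 and -0.47, against 0.01 and 0.06 over all genes. The rhoGFP-positive arrays lay below the others without overlap in 3 of 6 genes in each comparison, and this held for 20.3% and 23.4% of all genes. The arrays of Irx1 lay above the nestinGFP-positive ones without overlap, as did those of 24.4% of all genes. These comparisons share the rhoGFP-positive arrays and are not independent of each other. With p-values adjusted over all 45037 probe sets in place of genes, the same counts of 3 and 2 were reached, and 4.96% and 7.78% of probe sets were called lower.

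Between the rhoGFP-negative cells of P4 and the nestinGFP-positive cells of P0, limma called 0 of 6 Irx genes, and 0 had an unadjusted p below 0.05. Only 0.989% of all genes were called in this comparison (0.605% lower, 0.385% higher), or 180 genes, and 0.444% of probe sets; with the replicate number as a block 453 genes were called, and 0 Irx genes. The differences were -0.28 (95% interval -0.92 to 0.36) for Irx5, -0.03 (-0.58 to 0.51) for Irx3 and 0.19 (-0.23 to 0.62) for Irx6. A difference of up to 0.92 log2 units in Irx5 is thus within the interval.

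**Figure D2:**
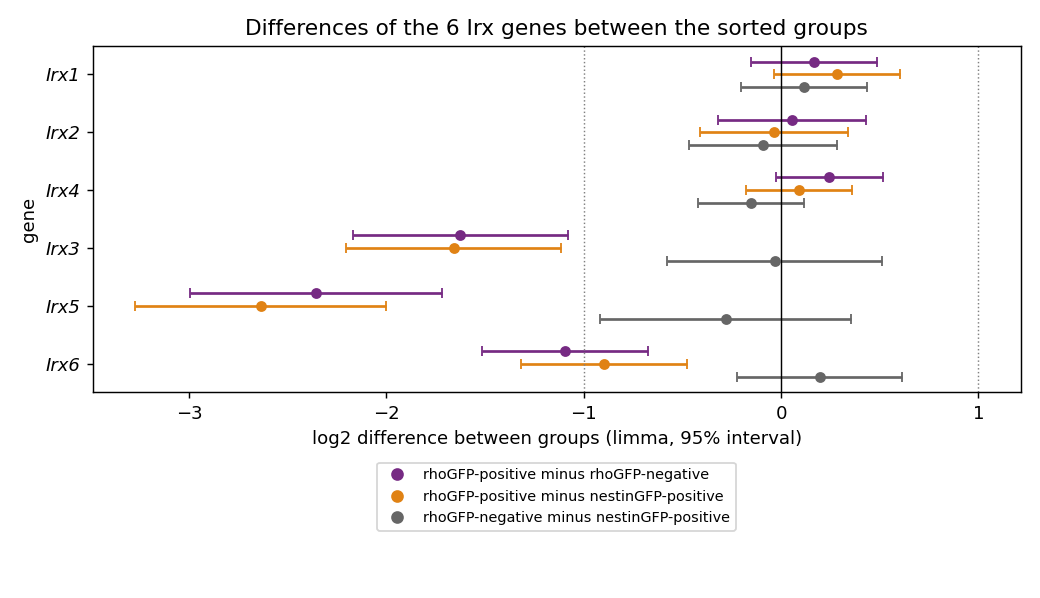
Log2 difference between sorted groups (horizontal axis, with its 95% limma interval) for each Irx gene (vertical axis); colours give the 3 comparisons, and dotted lines mark a 2-fold difference. Irx3 and Irx5 lie wholly left of the line at -1 against both other groups, the intervals of Irx6 cross that line, and all others span 0.

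The differences of the 3 chromosome 8 genes were unequal in size, which was examined within arrays. The log2 signal of Irx5 minus that of Irx3 on the same array was 1.78 ± 0.179 (SD, n = 3) for the rhoGFP-positive arrays, 2.51 ± 0.177 for the rhoGFP-negative arrays and 2.76 ± 0.121 for the nestinGFP-positive arrays. The same difference of Irx5 and Irx6 was 1.86 ± 0.527, 3.12 ± 0.205 and 3.60 ± 0.528. In a two-sided exact permutation test the shift between the rhoGFP fractions gave p = 0.1 for each pair, the smallest p that 3 against 3 arrays allow, and an adjusted p of 0.15 over the 9 tests of this kind. These tests cannot pass 0.05 in this design. The rhoGFP-positive signals of Irx3 and Irx6 lay below the 40% mark, and the part of signal compression in these unequal shifts was not tested.

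Irx3 and Irx5 also deviated together within groups. Replicate 3 was the highest rhoGFP-positive and the highest rhoGFP-negative array for both genes, and replicate 1 was the highest nestinGFP-positive array for both. The deviations from the group means of the 2 genes correlated at r = 0.93 over the 9 arrays, the highest of the 15 pairs of Irx genes, and at 0.87 without replicate 3 of the nestinGFP-positive and of the rhoGFP-negative group. Irx6 correlated less (r = 0.20 with Irx5 and 0.11 with Irx3), as deviations. Irx1 and Irx2, the chromosome 13 pair, deviated together at r = 0.82, and Irx2 went against Irx5 at -0.79. The arrays share an RNA pool for all genes, so these values describe the arrays and carry no test.

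**Figure D3:**
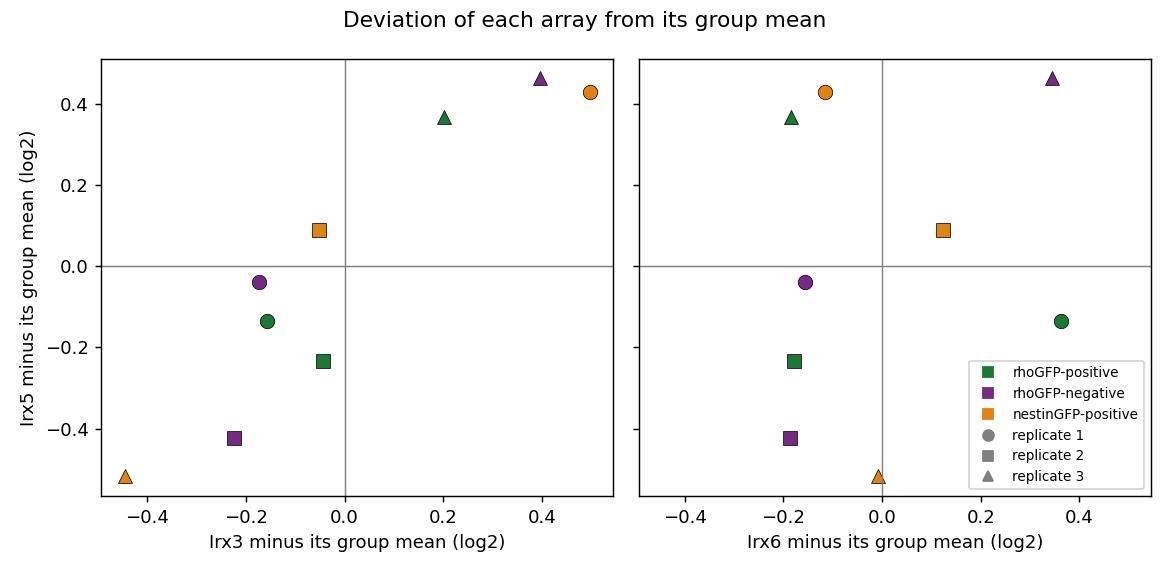
Deviation of Irx5 from its group mean (vertical axes, log2) against that of Irx3 (left) and Irx6 (right) on the 9 arrays; colours give the group and symbols the replicate number. Irx3 and Irx5 rise together (r = 0.93), and Irx6 and Irx5 show no such line (r = 0.20).

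Values that moved with these deviations are given beside them. The median log2 signal of the 12 progenitor genes was 7.82, 7.88 and 8.66 on the rhoGFP-positive, 9.90, 9.81 and 10.91 on the rhoGFP-negative and 11.33, 10.93 and 11.13 on the nestinGFP-positive arrays. Its deviations correlated with those of Irx3 and Irx5 at r = 0.72 and 0.75, and with those of Irx6 at 0.21. The median of 8 cone genes deviated with Irx3, Irx5 and Irx6 at r = 0.73, 0.72 and 0.68. Astrocyte genes went against Irx3 and Irx5 at -0.65 and -0.46, endothelial genes against Irx3 at -0.58, and pigment epithelium genes against Irx6 at -0.68. Ganglion cell genes went against Irx5 and Irx6 at -0.49 each. Horizontal cell genes went with Irx5 at 0.52, and endothelial and astrocyte genes with Irx6 at 0.47 and 0.31. Rod genes went with Irx3 and Irx5 at 0.40 each, and microglial genes with Irx5 at 0.38 and against Irx6 at -0.41. Bipolar cell genes went with Irx6 at 0.38, and horizontal cell genes with Irx3 at 0.37. Not every correlation of the lists compared is given here, and the values carry no test. On the nestinGFP-positive arrays the actin 3' minus 5' difference was 0.40, 0.61 and 0.99, a range that spans both rhoGFP fractions, while Irx5 stood at 10.63, 10.29 and 9.69. The part of cell makeup and RNA integrity in the spread of Irx3 and Irx5 was not tested.

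Without the 3 replicate 1 arrays, which carried the high 18S signal, the differences between the rhoGFP fractions were -2.31 for Irx5, -1.63 for Irx3 and -1.35 for Irx6. In the other comparison they were -2.36, -1.33 and -1.14. All 6 values were called (limma adjusted p from 0.0023 to 0.00492). This alternative was chosen after the data were seen.

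The genes next to the clusters were set beside the members. On chromosome 8 the order is Aktip, Rpgrip1l, Fto, Irx3, Irx5, Irx6, Mmp2, Lpcat2 and Capns2, and Rpgrip1l is not analysed here. Fto, a demethylase gene beside Irx3, was at -0.01 between the rhoGFP fractions (limma adjusted p = 0.975) and at -0.07 against the nestinGFP-positive cells (limma adjusted p = 0.753). Aktip, on the far side of Fto, was at 0.43 and 0.70 and was not called.

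On the other side of the cluster the values were mixed. Mmp2, a matrix metalloprotease gene beside Irx6, stood at 7.45, 7.26 and 7.84 on the rhoGFP-positive arrays, at 8.86, 8.57 and 8.97 on the rhoGFP-negative arrays and at 6.57, 6.81 and 7.24 on the nestinGFP-positive arrays. It was thus called lower against the rhoGFP-negative cells (-1.28 ± 0.20, limma adjusted p = 0.00122) and not called against the nestinGFP-positive cells (0.64). The lysophospholipid acyltransferase gene Lpcat2 and the calpain subunit gene Capns2, which lies within it, were at 0.95 and 0.88 between the rhoGFP fractions and were called higher against the nestinGFP-positive cells (1.43 and 1.68). Without rhoGFP-positive replicate 1, Capns2 was called between the rhoGFP fractions at 1.01, and without all replicate 1 arrays at 1.06.

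On chromosome 13 the measured genes around Irx1, Irx2 and Irx4 were Ice1, Adamts16, Mrpl36 and Lpcat1, while Ndufs6 and Gm47655 are not analysed here. None was called between the rhoGFP fractions, with values from -0.37 for the mitochondrial ribosome gene Mrpl36 to 0.46 for Lpcat1. Against the nestinGFP-positive cells Lpcat1, an acyltransferase gene active in photoreceptors, was called higher at 1.02. It lost the call at 0.96 when its probe sets were averaged and at 0.99 with quantile normalization. The call was also lost at 0.99 without rhoGFP-positive replicate 2 or nestinGFP-positive replicate 3, and at 0.94 without nestinGFP-positive replicate 2. In all, of 9 measured neighbours 1 was called lower and 0 higher between the rhoGFP fractions, and 0 lower and 3 higher against the nestinGFP-positive cells. Over all genes 7.32% were called lower and 3.61% higher in the first comparison, and 10.5% and 5.06% in the second.

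**Figure D4:**
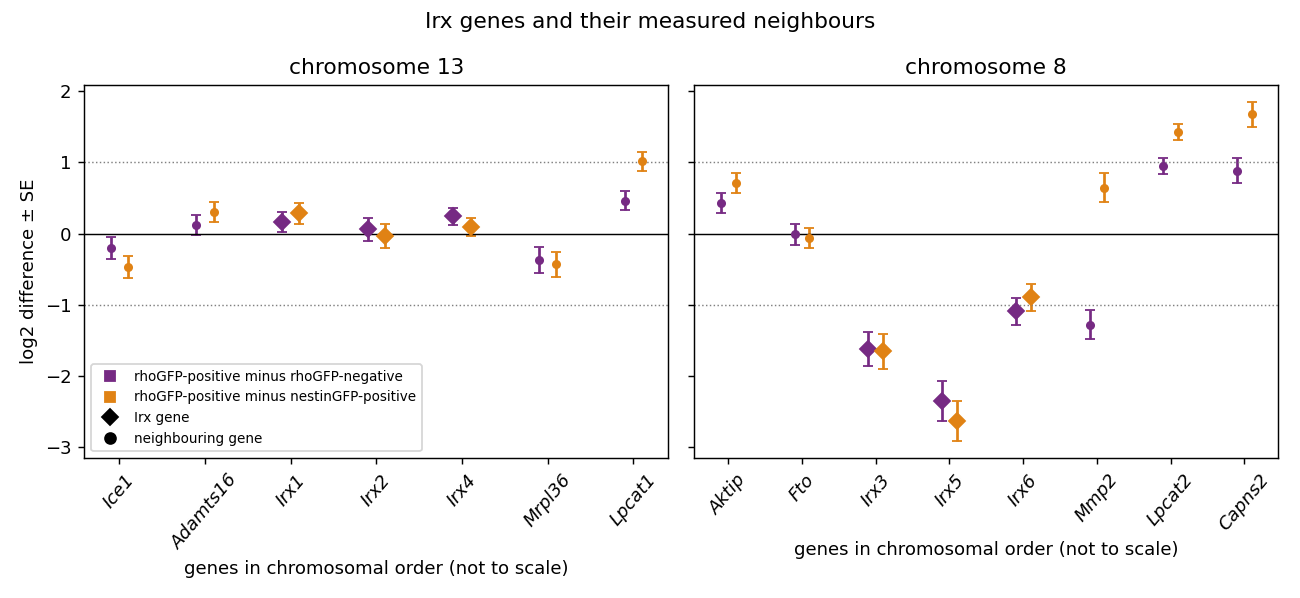
Log2 difference ± SE (vertical axis) of Irx genes (diamonds) and their measured neighbours (circles) in chromosomal order, not to scale, for the 2 comparisons of the rhoGFP-positive cells; dotted lines mark a 2-fold difference. On chromosome 8 Irx3, Irx5 and Irx6 lie below 0 between Fto near 0 and the mixed values of Mmp2, Lpcat2 and Capns2.

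Other TALE homeobox genes were set beside the Irx family. Of 11 measured, 3 were called lower and 1 higher between the rhoGFP fractions, and 4 lower and 0 higher against the nestinGFP-positive cells, with medians of -0.44 and -0.70. The shares of all genes were 7.32% lower and 3.61% higher, and 10.5% lower and 5.06% higher. Tgif1, a TALE repressor that binds SMAD proteins, stood at 5.84, 6.17 and 6.65 on the rhoGFP-positive arrays, at 7.97, 8.15 and 8.82 on the rhoGFP-negative arrays and at 8.41, 8.27 and 7.89 on the nestinGFP-positive arrays. Its differences were -2.09 ± 0.26 (limma adjusted p = 0.000296) and -1.97 ± 0.26 (limma adjusted p = 0.000261), close in size to those of Irx3 and Irx5.

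Its paralog Tgif2 was at -1.81 ± 0.18 and -2.13 ± 0.18 and did not overlap between the rhoGFP-positive cells and the others. Pknox2, a Pbx-related cofactor, was at -1.38 and -1.84, but on averaging its probe sets at -0.62 and -0.81, where it was not called. Pbx3, a partner of Hox and Meis proteins, was called higher between the rhoGFP fractions (1.61 ± 0.25, limma adjusted p = 0.00114) and was at 0.14 against the nestinGFP-positive cells. Mkx, the TALE gene nearest in sequence to the Iroquois family, was at -0.68 and -0.53 and was not called.

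Genes of bipolar cells, the type in which Irx5 and Irx6 have known roles, were called in both directions. Of 20 measured, 2 were called lower and 2 higher between the rhoGFP fractions, with a median of -0.24, and 0 lower and 2 higher against the nestinGFP-positive cells, with a median of 0.17. Over all genes the shares were 7.32% lower and 3.61% higher, and 10.5% lower and 5.06% higher. The 2 of 20 called lower between the rhoGFP fractions thus lay near the share of all genes. The LIM-homeobox gene Lhx4 was at -2.37 ± 0.18 against the rhoGFP-negative cells (limma adjusted p = 1.47e-05), the size of the Irx5 difference. Against the nestinGFP-positive cells it was at -0.69 and not called, where Irx5 was at -2.64. Lhx4 was also called higher in the rhoGFP-negative than in the nestinGFP-positive cells (1.68, limma adjusted p = 0.00541), where Irx5 was at -0.28.

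Vsx1, a homeobox gene of cone bipolar cells, was at -0.28 and 0.17 and was not called, at signals of 5.26 to 6.33 on all arrays. Bhlhe22, a further bipolar regulator, is not analysed here. Isl1, which marks bipolar, amacrine and ganglion neurons, was at -2.05 ± 0.74 and -1.88 ± 0.74 and did not pass the test (limma adjusted p = 0.0763 and 0.0764). Its rhoGFP-positive arrays ranged from 5.16 to 7.24, and with the replicate number as a block it was called in both comparisons (limma adjusted p = 0.0234 and 0.0268).

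Leaving out replicate 1 of the rod-reporter group, its highest array, put Isl1 at -2.73 and -2.56, where it was called too (limma adjusted p = 0.0234 and 0.0218). It was also called between the rhoGFP fractions without rhoGFP-negative replicate 3 (-2.69), and in the other comparison without rhoGFP-negative replicate 1 (limma adjusted p = 0.0247). With only the 6 arrays compared, Isl1 was called against the nestinGFP-positive cells (limma adjusted p = 0.0322). Without all replicate 1 arrays it was called in both comparisons, at -1.92 and -2.81. Otx2, needed for both photoreceptors and bipolar cells, was at -0.25 and 0.61 and was not called. Among the terminal bipolar genes the tachykinin receptor gene Tacr3 was lower (-1.83) against the rhoGFP-negative cells; against the nestinGFP-positive cells it was at -0.94 and not called. There it was called at -1.60 without _x_at and _s_at probe sets, to which its probe set belongs. It was also called there at -1.24 without rhoGFP-positive replicate 1 and at -1.23 without all replicate 1 arrays. The kinase gene Prkca (1.51 and 1.44) and the G-protein subunit gene Gng13 (1.20 ± 0.21 and 1.57 ± 0.21) were higher in the rhoGFP-positive cells, but neither was called when probe sets were averaged. Gng13 fell short of the call at 0.92 between the rhoGFP fractions without rhoGFP-positive replicate 3.

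Ganglion cell genes, the other neurons in which Irx genes are known, were called lower in 8 of 16 and higher in 0 of 16 in each comparison of the rhoGFP-positive cells, with medians of -0.87 and -1.18. Among all genes 7.32% and 10.5% were called lower in these comparisons. Between the rhoGFP fractions the largest differences were in the transcription factor genes Ebf3 (-2.59) and Ebf1 (-1.90) and in the growth-cone gene Stmn2 (-1.67). In the other comparison they were in Stmn2 (-2.99), the T-box gene Eomes (-2.31) and the RNA-binding protein gene Elavl4 (-2.19). Other listed genes did not follow. The transcription factor genes Pou4f1 (0.19 and -0.31), Pou4f3 (0.13 and 0.11) and Isl2 (-0.14 and 0.09) were not called in either comparison. Of these, Pou4f3 had a mean signal of only 3.07 over the 9 arrays.

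**Figure D5:**
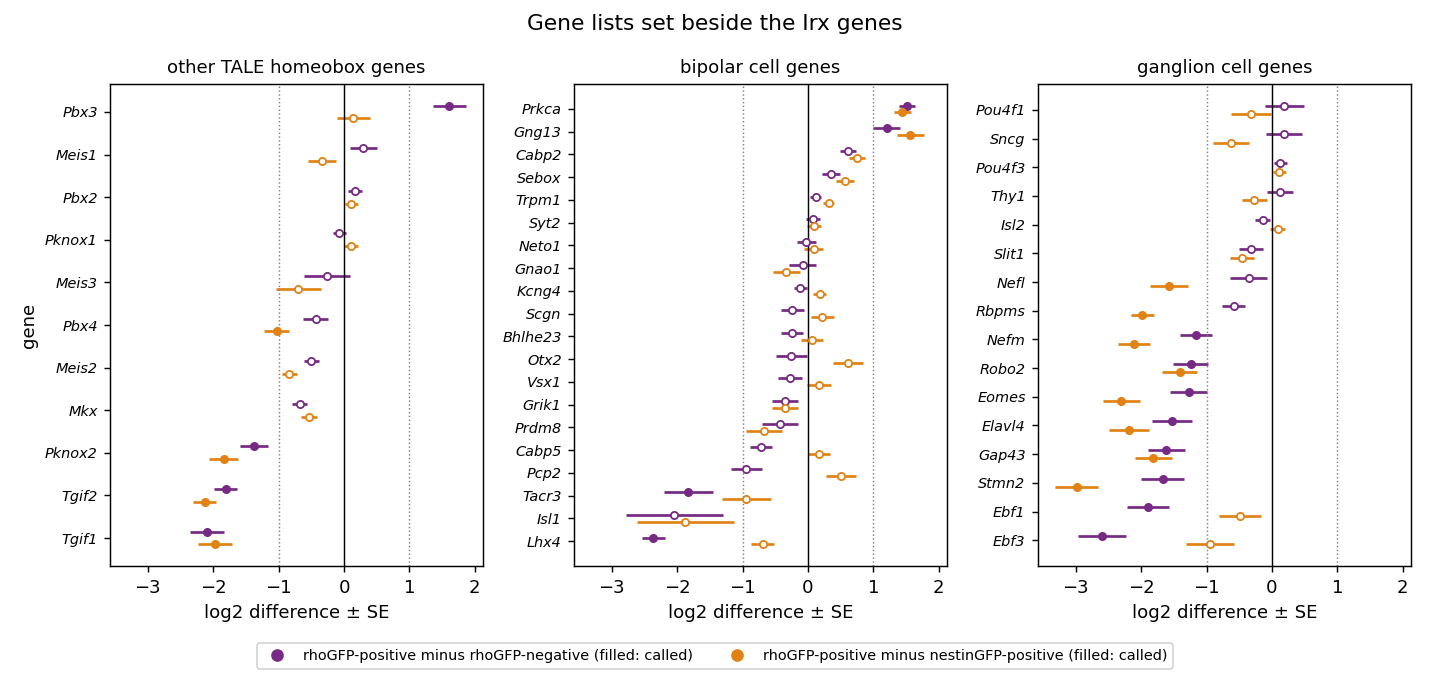
Log2 difference ± SE (horizontal axes) of other TALE homeobox, bipolar cell and ganglion cell genes (vertical axes) for the 2 comparisons of the rhoGFP-positive cells; filled points were called, and dotted lines mark a 2-fold difference. Tgif1 and Tgif2 lie at the low end of the TALE genes in both comparisons, and Lhx4 at the low end of the bipolar genes in the comparison of the rhoGFP fractions.

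Markers of several other cell types were lower along with the chromosome 8 genes, and some were higher. Between the rhoGFP fractions 11 of 12 progenitor, 8 of 10 amacrine and 4 of 7 Müller glia genes were called lower in the rhoGFP-positive cells, as were 2 of 5 horizontal and 3 of 7 endothelial genes, while 0 of 7 microglial genes were called. The horizontal and endothelial medians were 0.00 and 0.01, and the endothelial adhesion genes Cdh5 (0.01) and Pecam1 (0.10) were not called. In the other direction 2 of 5 pigment epithelium genes, Tyrp1 (1.94) and Rgr (1.43), and 1 of 8 cone genes were called higher. Of all genes 7.32% were called lower and 3.61% higher in this comparison. Amacrine medians lay between 6.03 and 6.72 on the rhoGFP-positive, 8.04 and 8.79 on the rhoGFP-negative and 9.03 and 9.37 on the nestinGFP-positive arrays. Müller glia medians lay between 7.17 and 8.71 on the rhoGFP-positive, 9.76 and 10.62 on the rhoGFP-negative and 8.69 and 9.58 on the nestinGFP-positive arrays. Which of these cells carried the Irx3, Irx5 and Irx6 signal was not tested.

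The genes whose pattern over the 9 arrays was most like that of each called Irx gene were found by Pearson correlation among the genes with at least the median signal. For Irx5 they were Gas1, a growth-arrest gene whose product is a Hedgehog co-receptor (r = 0.995), 1700019D03Rik (0.994) and Sox8, of the SoxE family (0.993). Gas1 differed by -2.35 and -2.51 in the 2 comparisons of the rhoGFP-positive cells and Sox8 by -2.29 and -2.61, beside -2.36 and -2.64 for Irx5.

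For Irx3 the nearest were the neurotrophin receptor gene Ngfr (r = 0.988), Dipk2a (0.988) and Irx5 itself (0.987), so that its cluster neighbour ranked 3 of 9097 genes compared. For the other ranks the Irx genes were added to the genes compared whatever their signal, which gave 9101. In that set Irx3 ranked 19 for Irx5, and Irx6 ranked 1214 for Irx3 and 1332 for Irx5. On averaging probe sets Ngfr moved from -2.38 to -1.22 between the rhoGFP fractions, and Dipk2a from -1.38 to -0.92, which ended its call. For Irx6 they were the centriole and spindle gene Ccsap (0.982), the G-protein gene Gna12 (0.973) and the splicing gene Snrpc (0.969). Gna12 was called between the rhoGFP fractions at the edge of the 2-fold minimum. It was not called on averaging its probe sets (-0.52), with a common median (-0.98) or quantile normalization (-0.99), or without rhoGFP-negative replicate 3 (-0.89) or rhoGFP-positive replicate 2 or 3 (-0.95 and -0.98); Ccsap (-0.48) and Snrpc (-0.31) were not. Among 9 arrays in 3 groups many genes reach such correlations, so these ranks describe the pattern and carry no test.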

How the data were processed

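The authors deposited log2 signals, which the submitters' processing notes credit to RMA. No version of RMA is given in the sources used here. The method subtracts background, makes the probe distributions of arrays equal and combines probes into probe sets, and it compresses low signals. Per the labels' protocols, 200 ng of total RNA was amplified to biotin-labelled cRNA. No scan batch is named, and the number of arrays limits the precision (median SE of a gene's difference 0.14 log2 units).

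Of 45101 probe sets 64 were controls; 34945 had 1 gene symbol, updated by Entrez ID against RefSeq for 34741, and 932 had several. A gene was represented by its probe set with the highest mean over the 9 arrays, and each Irx gene had 1. Group means of all 9 arrays were fitted together with lmFit and eBayes of limma 3.58.1 (R 4.3.3), and tests were two-sided. The limma fit and call rule were tried on simulated data with independent noise and planted differences, for the rhoGFP fractions only. The other steps were not simulated. Figures were drawn with matplotlib 3.10.9. RefSeq tables of GRCm38.p6 gave gene order and the promoter sequence; 3 of 6 Irx genes were in the promoter table.

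The members and gene lists were chosen with earlier results of these data known. Named were all Irx genes, their measured neighbours (3 genes on each side), set bipolar genes and Slit1. Also named were the 3 largest called differences of each list in each comparison of the rhoGFP-positive cells, and the 3 genes most like each called Irx gene. Mkx, Cdh5, Pecam1, Tyrp1, Rgr, Pou4f1, Pou4f3 and Isl2 were added once their values were known, as were second comparisons of genes named for the first. Nrl, Pde6b and Nes served as a check of the labels. All groups carry replicate numbers 1 to 3. Same-numbered arrays of the rhoGFP fractions deviated from their group means with correlations of 0.62, 0.45 and 0.45. Arrays of unlike number there had correlations of 0.074 or less, so by these data alone the numbers pair the rhoGFP fractions. For rhoGFP-negative with nestinGFP-positive arrays the same-number values were 0.54, 0.155 and 0.23. However, rhoGFP-negative replicate 2 deviated more with nestinGFP-positive replicate 3 (0.22), so the numbers do not pair all arrays there. For rhoGFP-positive with nestinGFP-positive arrays the same-number values were 0.52, -0.01 and 0.25. The reported fit and permutation tests have no block, and the replicate block is an alternative. Alternatives were other normalizations, probe-set choices, a filter on low signals, the fit of 6 arrays, the replicate block, a trended and robust eBayes, other thresholds and leaving out each array.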

Additional observations from a re-analysis of the deposited data

How the results depend on the processing

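The count of Irx genes called between the rhoGFP fractions was 3 under every alternative run but one, and 2 without replicate 3 of the rhoGFP-negative group, so that leaving out single arrays gave 2 to 3. Against the nestinGFP-positive cells it was 2, and 3 with no fold minimum, without replicate 1 of the rhoGFP-positive group and without all replicate 1 arrays. Between the rhoGFP-negative and nestinGFP-positive cells it was 0 under every alternative run. The replicate block gave 3, 2 and 0, and it changed no call of an Irx gene. Of the other named genes it added calls for Isl1 in both comparisons of the rhoGFP-positive cells, and for Pde6b, Ebf3, Ebf1, Stmn2 and Eomes in the third. The filter on low signals removed Irx1, Irx2 and Irx4, which have no value there. Irx5 ranged from -2.57 to -2.13 and from -2.90 to -2.36 in the 2 comparisons of the rhoGFP-positive cells, with limma adjusted p of at most 0.00368, and Irx3 from -1.74 to -1.43 and from -1.88 to -1.33, with at most 0.00547. Over all genes the third comparison is the least stable: 180 genes were called, 453 with the replicate block, 28 with only the 6 arrays, 23 at an adjusted p below 0.01, and 19 to 559 when single arrays were left out. With no fold minimum 4417, 6508 and 370 genes were called in the 3 comparisons, against 1988, 2838 and 180.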
